A study of Mus musculus with 21 samples.

Results

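Of 58796 autosomal regions of open chromatin (peaks) measured in mouse endothelial cells, 1185 (2.02%) were closed in brain and open in both lung and liver. They were chosen on their levels in CPM, the reads in a region as a share of all reads that the library had in regions, scaled to a common total. The lung mean and the liver mean both had to reach 5 CPM, and each mean plus 0.5 had to be at least 3 times the brain mean plus 0.5. Lung and liver had to lie within 2-fold of each other. The tissue levels therefore chose the regions, and their differences between tissues are given below as a description. Calls of the members between tissues were set by that choice and are printed beside their background only, with nothing read from them. The whole table held 60119 regions, which included chromosome X and unplaced sequence, and 10 regions of chromosome X also met the thresholds without being counted as members. Positions are in the mm9 build, counted from 1. No annotation or genome of that build was used, so the regions carry no gene names and no sequence here.

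The study set endothelial cells of brain against those of lung and liver from C57BL/6J mice of 2 to 4 months, with no transgene or treatment named. The assay of transposase-accessible chromatin (ATAC-seq) covered 4 brain, 4 lung and 3 liver libraries, and separate bulk RNA libraries numbered 3 per tissue. After perfusion the organs were dissociated with enzymes (collagenase, dispase, DNase), and live cells that were CD31+, PDGFRβ- and CD45- were sorted. Myelin was removed from brain alone, so that step and the tissue cannot be told apart. Nothing says whether ATAC libraries came from separate or pooled animals, and p-values measure only the spread between these libraries.

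ATAC-seq uses a transposase that cuts and tags DNA where nucleosomes and other proteins leave it exposed, and read density marks promoters, enhancers and other accessible elements. Endothelial cells line vessels in every organ but differ by organ. Brain endothelium forms a barrier of tight junctions with little vesicular transport, lung capillaries serve gas exchange, and liver sinusoids are fenestrated and take up material from blood. In libraries made from many sorted cells, fewer cells open at a region and less opening per cell cannot be told apart.

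Reads in regions numbered 5003580 to 17956240 per brain library, 1244653 to 6046832 per lung library and 1856763 to 2175575 per liver library. A level of 5 CPM stood for 25.0 to 89.8 reads in a brain library, 6.22 to 30.2 in a lung library and 9.28 to 10.9 in a liver library. The 2 shallow lung libraries have column names that match no single sample label and are called lung a and lung b. RNA was used only to check the tissue labels. The transporter and junction genes Slc2a1, Mfsd2a and Cldn5 summed to 3259 to 4370 CPM in brain, 390 to 655 CPM in lung and 42.2 to 67.3 CPM in liver. The sinusoidal genes Stab2 and Gata4 summed to 0 to 0.279 CPM in brain, 0 to 0.442 CPM in lung and 2286 to 2426 CPM in liver. Both sums were thus highest in the tissue they mark, the brain sum mainly through Slc2a1. Cldn5 alone averaged 399 CPM in brain, 538 CPM in lung and 54.7 CPM in liver. The lung capillary genes Ace and Car4 summed to 200 to 251 CPM in brain, 2651 to 3550 CPM in lung and 3.25 to 11.7 CPM in liver. Of the other cell types, the leukocyte genes Ptprc and Cd79a summed to 0.279 to 5.22 CPM in brain, 36.2 to 41.6 CPM in lung and 0.0778 to 0.642 CPM in liver. The hepatocyte gene Alb was at 0 in brain and lung and at 157 to 402 CPM in liver. Leukocyte genes were thus highest in lung and hepatocyte RNA was found in liver alone. The mural genes Pdgfrb and Rgs5 summed to 11.1 to 97.4 CPM in brain, 3.34 to 7.22 CPM in lung and 0.433 to 1.48 CPM in liver. The fibroblast genes Pdgfra and Dcn summed to 1.51 to 15.9 CPM in brain. Their sums were 5.01 to 22.5 CPM in lung and 3.72 to 6.92 CPM in liver. The lung epithelial gene Sftpc was at 2.30 to 7.02 CPM in lung and at 0 in brain and liver. The astrocyte genes Gfap and Aqp4 summed to 0 to 2.75 CPM in brain, 0 to 2.01 CPM in lung and 0 in liver. The neuron gene Snap25 was at 1.67 to 8.30 CPM in brain, 0 to 2.21 CPM in lung and 0 in liver. The endothelial genes Pecam1, Cdh5, Kdr, Tie1 and Erg summed to 2913 to 3285 CPM in brain. Their sums were higher in both other tissues without overlap, at 7444 to 10611 CPM in lung and 3999 to 4319 CPM in liver. By gene, only Cdh5 and Kdr had higher means in both other tissues than in brain. Pecam1 averaged 995 CPM in brain and 658 CPM in liver, and Tie1 163 CPM in brain and 134 CPM in liver. Erg averaged 401 CPM in brain and 350 CPM in lung. The part of endothelial RNA level or of other cells in the ATAC levels was not tested.

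The 1185 regions together held a small share of the brain reads and a share about as large in lung as in liver. They took 0.204%, 0.430%, 0.380% and 0.261% of the reads in the brain libraries. In the lung libraries they took 1.76%, 1.77%, 1.61% and 1.59%, and in the liver libraries 1.65%, 1.66% and 1.75%. The means were 0.319 ± 0.105% in brain, 1.68 ± 0.0988% in lung and 1.69 ± 0.0535% in liver (SD, n = 4, 4 and 3). Brain stood apart from both other tissues, as the choice of regions fixed, and the brain libraries varied most relative to their mean. The median region had 1.17, 2.98, 2.60 and 1.57 CPM in brain libraries 1 to 4, 11.3, 11.9, 10.5 and 11.2 CPM in the lung libraries, and 10.6, 10.1 and 11.8 CPM in the liver libraries. Brain 2 was the highest and brain 1 the lowest of the brain libraries by both measures. The same order was seen at the weak end of all autosomal regions, whose 10th percentile was 0.446, 1.64, 0.999 and 0.572 CPM in brain libraries 1 to 4. The part of this low-end level in the number of closed regions was not tested. Without brain 1, 913 regions met the rule, and without brain 2, 1735 did.

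**Figure D1:**
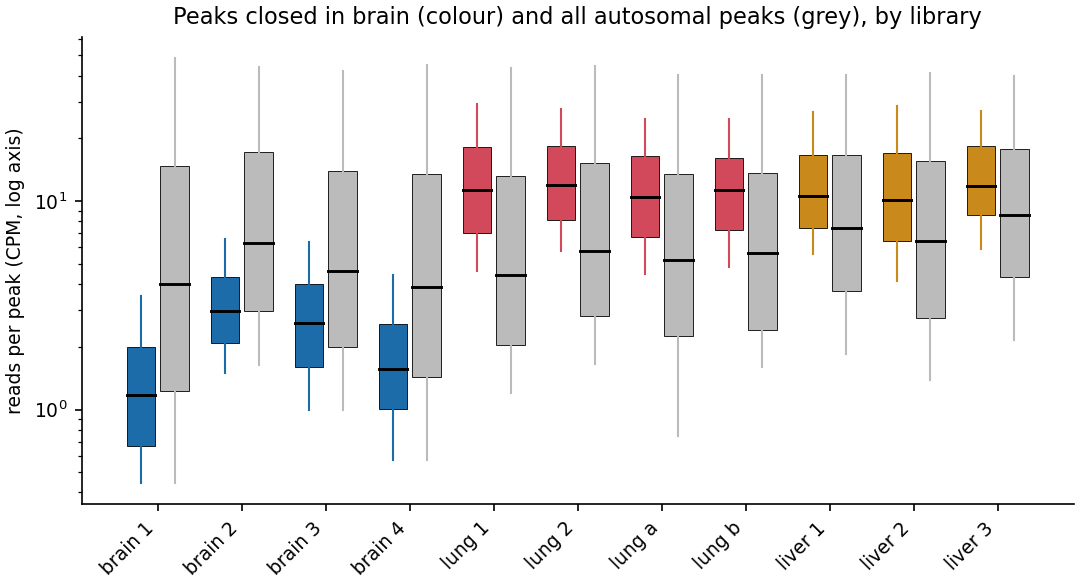
Levels per library on a log axis in CPM, with brain first, then lung and liver; coloured boxes are the 1185 regions and grey boxes are all autosomal regions, with the median as a line, quartiles as the box and the 10th to 90th percentiles as whiskers. The coloured medians sit between 1.17 and 2.98 CPM in brain, 10.5 and 11.9 CPM in lung and 10.1 and 11.8 CPM in liver.

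Closed is a relative word for these regions. The brain mean ranged between 0.435 and 29.4 CPM with a median of 2.04, against medians of 10.9 CPM in lung and 11 CPM in liver. Over all autosomal regions the medians were 4.69 CPM in brain, 5.25 CPM in lung and 7.23 CPM in liver. Of the 1185 regions, 1053 lay below the autosomal brain median and 591 below its lower quartile of 2.04 CPM. A brain mean under 1 CPM was found at 71 regions and under 5 CPM at 1072 (90.5%). The other 113 regions had at least 5 CPM in brain, the same minimum that was asked of the open tissues, and 17 of them had at least 10 CPM. For these the label holds only relative to lung and liver. No region was at 0 reads in every brain library, the lowest sum over the 4 libraries was 14 reads, and 14 regions had 0 reads in at least 1 brain library. Per kilobase of region, the median was 4.93 CPM in brain, 26.9 CPM in lung and 27.3 CPM in liver, against 12.8, 14 and 18.2 CPM per kilobase over all autosomal regions in brain, lung and liver.

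Single regions followed the tissue means in most libraries. Every lung and every liver library was above every brain library at 1044 of the 1185 regions (88.1%), against a background of 9% of autosomal regions. Nothing is read from that gap, since the rule chose on the same levels. At the other 141 regions at least 1 lung or liver library was at or below a brain library. Taken by tissue, 1085 regions had every lung library above every brain library, with a background of 15.6%, and 1136 had every liver library above, with a background of 28%. The median coefficient of variation between libraries was 51.0% in brain, 29.1% in lung and 27.7% in liver. The median number of reads summed over libraries was 63 in brain, 164 in lung and 67 in liver.

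In edgeR's quasi-likelihood test over all 58293 regions that passed the filter on low counts, a call needed an adjusted p (Benjamini-Hochberg) under 0.05 and a log2 change of at least 1. The background called lower in brain was 15.8% against lung and 18.9% against liver. All 1185 members were so called in both contrasts, which share the brain libraries. This count is no result, since the rule chose the members for low brain levels in the same libraries. The median log2 fold change of the members was -2.33 for brain over lung and -2.09 for brain over liver, beside -0.10 and -0.12 over all regions tested. Without TMM, the median over all regions shifted by -0.11 against lung and -0.32 against liver, and that of the members to -2.40 and -2.38.

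The ratio that decided membership, the lower of the lung and liver means over the brain mean with 0.5 added to each, had quartiles of 3.28, 3.67 and 4.47 and a highest value of 11.2. It reached 4 at 451 regions, 5 at 196, 8 at 18 and 10 at 4. The threshold cut through a dense range: 477 regions lay between 3 and 3.5, and 752 regions outside lay between 2.5 and 3. The regions just inside included chr5:143721939-143722138, with means of 2.37 CPM in brain, 8.13 CPM in lung and 11 CPM in liver. Another was chr1:4764982-4765889, with 4.48 CPM in brain, 14.4 CPM in lung and 14.6 CPM in liver. Just outside stood chr18:80484156-80484739, with 5.57 CPM in brain, 24.1 CPM in lung and 17.7 CPM in liver. A further 219 regions passed the ratio and the minimum but had lung and liver more than 2-fold apart, 98 with lung higher and 121 with liver higher. The number of members also depended on how libraries were scaled, at 750 with trimmed mean of M values (TMM) scaling, of which 705 were among the 1185, and at 593 with DESeq2 size factors, of which 563 were.

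The region with the largest ratio was chr3:29438057-29438694. It had 0.334, 4.18, 6.20 and 3.00 CPM in brain, 56.3, 42.0, 82.4 and 53.0 CPM in lung, and 44.9, 47.8 and 38.2 CPM in liver. The tissues did not overlap: the highest brain library was at 6.20 CPM and the lowest liver library at 38.2 CPM. A near-equal ratio of 11.2 was found at chr14:105834472-105835126, with 0.947, 3.13, 5.00 and 2.29 CPM in brain, 48.1, 46.8, 84.6 and 53.8 CPM in lung, and 35.6, 47.8 and 26.9 CPM in liver. Lung a was the highest library at both regions. At chr1:54797838-54798341 the levels were 0.835, 0.895, 1.60 and 0.858 CPM in brain, 17.2, 15.7, 20.2 and 9.64 CPM in lung, and 19.4, 19.3 and 19.4 CPM in liver. The liver libraries were nearly equal there, while lung b was well below the other lung libraries and still above every brain library. The last region past a ratio of 10, chr4:115320208-115320588, averaged 1.89 ± 1.17 CPM in brain, 24.2 ± 4.89 CPM in lung and 24.1 ± 1.04 CPM in liver (SD).

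The next 4 regions by ratio were chr1:54896743-54897229, chr6:39009344-39010150, chr6:115412919-115413525 and chr3:122407066-122407526, with ratios of 9.85, 9.76, 9.48 and 9.37. At chr3:122407066-122407526 the spread was wide, with 0.167, 3.13, 1.20 and 0.286 CPM in brain, 23.0, 26.6, 25.5 and 17.7 CPM in lung, and 17.6, 5.98 and 22.6 CPM in liver. Liver 2 was the lowest open library there and remained above every brain library.

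The strongest regions in lung and liver were not those with the largest ratios. The highest was chr18:75662254-75663080, with 35.0, 29.0, 28.2 and 25.3 CPM in brain, 117, 82.9, 92.8 and 72.3 CPM in lung, and 87.9, 123 and 76.5 CPM in liver. Its ratio was 3.07, and its brain level was above the autosomal upper quartile of 14.9 CPM, so it was closed only relative to lung and liver. At chr4:119704757-119705660 brain had 4.68, 7.61, 10.2 and 12.9 CPM, lung 119, 77.4, 109 and 78.7 CPM, and liver 53.6, 62.1 and 60.9 CPM. At chr17:34791956-34793018 brain had 4.40, 9.55, 9.79 and 10.0 CPM, lung 101, 70.6, 58.4 and 77.9 CPM, and liver 53.2, 64.8 and 61.9 CPM. Both regions had every open library at more than 4 times the highest brain library. Liver led at chr13:107550232-107551142, with 3.01, 8.36, 13.8 and 9.01 CPM in brain, 64.9, 51.9, 66.6 and 52.2 CPM in lung, and 70.8, 81.8 and 72.7 CPM in liver. The other 2 of the 6 strongest, chr2:6399337-6400402 and chr5:123844228-123845141, had brain means of 18.9 and 16.2 CPM and ratios of 3.13 and 3.17.

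**Figure D2:**
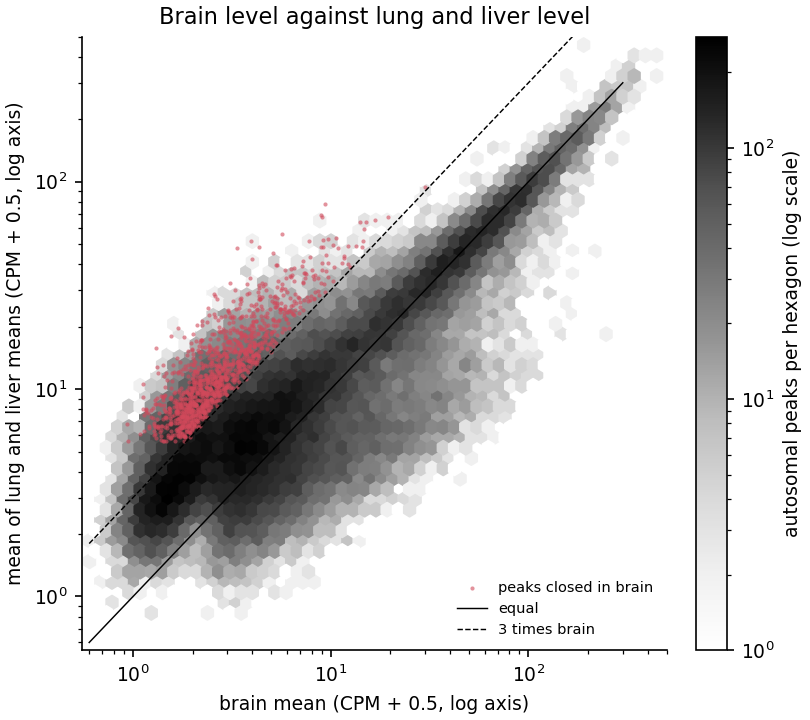
Mean level per region in CPM plus 0.5, on log axes that end at 500, with the brain mean across and the mean of lung and liver upwards; red points are the 1185 regions, grey hexagons count autosomal regions, the solid line is equality and the dashed line 3 times brain. The red points lie above the dashed line, and 113 of them have a brain mean of at least 5 CPM.

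Among regions open alike in lung and liver, members were more frequent at weak and narrow ones. The rule used the lung and liver levels, so the shares by level are a description. Among the 24181 autosomal regions with at least 5 CPM in lung and liver and within 2-fold between them, 4.90% were members, while 433 went the other way with brain at 3 times both. By the mean of lung and liver, members were 513 of 7357 regions at 5 to 10 CPM (6.97%) and 466 of 6265 at 10 to 20 CPM (7.44%). They were 173 of 4777 at 20 to 40 CPM (3.62%), 32 of 3684 at 40 to 80 CPM (0.869%) and 1 of 2098 at 80 CPM or more (0.0477%). The share thus fell steeply among the strongest regions. By width, members were 180 of 1223 regions under 300 bases (14.7%), 621 of 7018 at 300 to 500 bases (8.85%), 366 of 12652 at 500 to 1000 bases (2.89%) and 18 of 3288 at 1000 bases or more (0.547%). Width and level move together, and their separate parts were not tested.

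The median member was 427 bases wide (quartiles 335 and 536), near the 409 bases of all autosomal regions. Regions closed in lung and open in brain and liver by the mirrored rule had a median of 552.5 bases, and those closed in liver 619.5 bases. Regions with brain at 3 times both other tissues had a median of 656 bases. Of the members 1.52% reached 1000 bases, against 6.08% of all autosomal regions. The widest was chr19:21811841-21813236 with 1396 bases, which averaged 7.47 ± 1.68 CPM in brain, 28.9 ± 3.17 CPM in lung and 26.2 ± 6.72 CPM in liver (SD). The third widest, chr8:91061886-91063193, averaged 13.6 ± 4.55 CPM in brain, 77.9 ± 6.52 CPM in lung and 48.9 ± 8.69 CPM in liver (SD).

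By this rule, more regions were closed in brain alone than in lung alone or liver alone. Beside the 1185 regions closed in brain, the mirrored rule found 272 closed in lung and 40 closed in liver, and 1548 regions had brain at 3 times both others. The brain set was the largest of the 3 under each of the 25 other settings of the rule that were run. With quantile scaling the sets were 501 regions closed in brain, 139 in lung and 152 in liver. The low end of all autosomal regions differed by tissue. Its 10th percentile was 0.446 to 1.64 CPM in brain libraries, 0.749 to 1.65 CPM in lung and 1.38 to 2.15 CPM in liver. The part of these low-end levels in the 3 counts was not tested. Each brain library was deeper than each liver library, and with every library thinned to the smallest total the sets were 1413 regions closed in brain, 344 in lung and 57 in liver.

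Lung and liver were close at the members, as the 2-fold limit required. The lung mean was above the liver mean at 591 regions and below it at 594, and the means lay within 1.2-fold at 466. edgeR called 47 of the 1185 higher in lung than in liver (background 5.5%) and 0 lower (background 8.28%) at an adjusted p under 0.05 and a log2 change of at least 1. The 2-fold limit bars most such calls, so nothing is read from these counts. At an unadjusted p under 0.05, 172 were higher and 21 lower in lung, and DESeq2 called 39 higher and 0 lower. The imbalance moved with the scaling: without TMM edgeR called 0 higher and 1 lower, with 73 higher and 50 lower at an unadjusted p under 0.05. Without lung library 1 it called 9 higher. The widest gap towards lung was at chr3:85765084-85765464, with means of 1.35 CPM in brain, 11.3 CPM in lung and 5.67 CPM in liver. The widest gap towards liver was at chr19:55306518-55307095, with 3.07 CPM in brain, 14.6 CPM in lung and 29.2 CPM in liver.

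Position was not used to choose the regions beyond the limit to autosomes. Members were found on all 19 autosomes. The largest share was on chromosome 10, with 87 of 3479 regions (2.5%), and the smallest on chromosome 13, with 28 of 2871 (0.975%), below the next lowest share of 1.71% on chromosome 5. Of the members, 167 (14.1%) had another member within 10 kb, and the median distance to the nearest other was 227 kb. Joining members no more than 50 kb apart gave 146 runs that held 353 members (29.8%), while 832 stood alone. Of the runs, 105 held 2 members, 27 held 3, 11 held 4, and 1 each held 5, 6 and 7. With members chosen after TMM scaling there were 80 runs.

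Among regions with brain at 3 times both other tissues, 562 of 1548 (36.3%) fell in such runs, and among those closed in lung 26 of 272 (9.56%). These sets differ in size, which alone changes how often members meet, so the shares are not compared. Members in runs had somewhat higher median levels and ratios than members alone, a difference that was not tested. The medians were 2.18 CPM in brain, 12.1 CPM in lung and 12.6 CPM in liver in runs, and 1.98, 10.6 and 10.2 CPM in brain, lung and liver alone, with median ratios of 3.9 in runs and 3.58 alone.

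The run with the most members covered chr6:52108033-52154778, where 7 of the 8 regions in 46.7 kb were members. Its first region, chr6:52108033-52109035, had 2.28, 6.57, 7.99 and 3.86 CPM in brain, 57.5, 56.7, 56.9 and 63.5 CPM in lung, and 57.3, 52.4 and 47.9 CPM in liver. Its last region, chr6:52154070-52154778, had 0.891, 3.13, 5.80 and 4.15 CPM in brain, 66.4, 54.7, 42.7 and 35.4 CPM in lung, and 33.8, 35.9 and 33.4 CPM in liver. Both ends were thus strong in lung and liver, with no overlap with brain. The middle of the run held weaker regions, such as chr6:52122502-52122897 with means of 1.72 CPM in brain, 16 CPM in lung and 17.6 CPM in liver. The weakest, chr6:52141114-52141347, had 0.167, 2.84, 1.4 and 0.715 CPM in brain, 4.10, 5.79, 2.99 and 11.2 CPM in lung, and 11.6, 9.19 and 9.16 CPM in liver. In lung a it stood just above the highest brain library. The remaining 3 members of the run had ratios of 6.56, 7.22 and 5.42.

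The eighth region of that stretch, chr6:52120569-52121144, was no member because liver stood more than 2-fold above lung. It had 0.446, 3.73, 5.60 and 3.72 CPM in brain, 25.4, 21.5, 21.7 and 15.3 CPM in lung, and 45.8, 54.2 and 44.2 CPM in liver. It was lower in brain than in lung by a log2 fold change of -2.74 (edgeR, adjusted p = 4.35e-08) and than in liver by -3.70 (adjusted p = 1.31e-10). Beyond the end of the run the differences were smaller. At chr6:52161518-52161947 the means were 5.66 CPM in brain, 11.2 CPM in lung and 14.9 CPM in liver, with log2 fold changes of -0.80 against lung (edgeR, adjusted p = 0.0350) and -1.05 against liver (adjusted p = 0.00860). The next region, chr6:52163343-52163612, was weak, with means of 0.725 CPM in brain, 2.92 CPM in lung and 2.97 CPM in liver. Its log2 fold changes were -1.74 against lung and -1.87 against liver, and neither passed the test (edgeR, adjusted p = 0.0719 and 0.0611). At chr6:52171554-52172072 the means were 9.53 CPM in brain, 11.4 CPM in lung and 17.6 CPM in liver, and neither difference passed the test (edgeR, adjusted p = 0.641 and 0.139).

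The second run, chr4:104877634-104918654, held 6 members among 8 regions in 41.0 kb. Its strongest member, chr4:104896390-104896979, had 1.95, 6.27, 3.00 and 3.00 CPM in brain, 20.0, 18.5, 8.24 and 11.2 CPM in lung, and 34.7, 33.1 and 13.5 CPM in liver. About 15 kb past its end stood regions that were high in liver alone. At chr4:104933556-104934234 the means were 4.05 CPM in brain, 3.74 CPM in lung and 48.1 CPM in liver. Brain did not pass the test against lung there, with a log2 fold change of -0.03 (edgeR, adjusted p = 0.955), and was lower than liver by -3.43 (adjusted p = 3.07e-12).

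The third run, chr12:112672969-112708041, held 5 members among 8 regions, with ratios between 3.02 and 3.42, all near the threshold. Its member with the highest lung level, chr12:112699615-112700172, had 2.34, 3.43, 6.60 and 2.72 CPM in brain, 26.8, 28.1, 15.7 and 17.7 CPM in lung, and 13.4, 10.6 and 18.3 CPM in liver. Libraries of brain and lung overlapped at some members of this run: at chr12:112707840-112708041 lung a was at 1.5 CPM, below 2 of the 4 brain libraries. Each of the other 3 regions in the stretch was called lower in brain than in liver, and none of them lower than in lung.

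Of the 11 runs with 4 members, the one with the highest summed lung and liver level, chr9:107587747-107627466, held them among 8 regions and the second widest member. At chr9:107611784-107612817 brain had 14.5, 15.5, 12.8 and 12.6 CPM, lung 54.5, 62.7, 42.7 and 38.6 CPM, and liver 44.9, 44.1 and 50.6 CPM. That region was at no low level in brain, yet its libraries separated by tissue. All 4 other regions of the stretch were called lower in brain than in lung and 2 of them lower than in liver. One of these, chr9:107599088-107599586, averaged 2.45 CPM in brain, 36 CPM in lung and 16 CPM in liver, with log2 fold changes of -3.86 against lung (edgeR, adjusted p = 3.30e-21) and -2.45 against liver (adjusted p = 8.46e-10). About 20 kb before the run the direction turned. At chr9:107567298-107567879 the means were 23.9 CPM in brain, 3.75 CPM in lung and 6.15 CPM in liver, a log2 fold change of 2.82 against lung (edgeR, adjusted p = 1.09e-12) and 2.29 against liver (adjusted p = 3.22e-08).

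**Figure D3:**
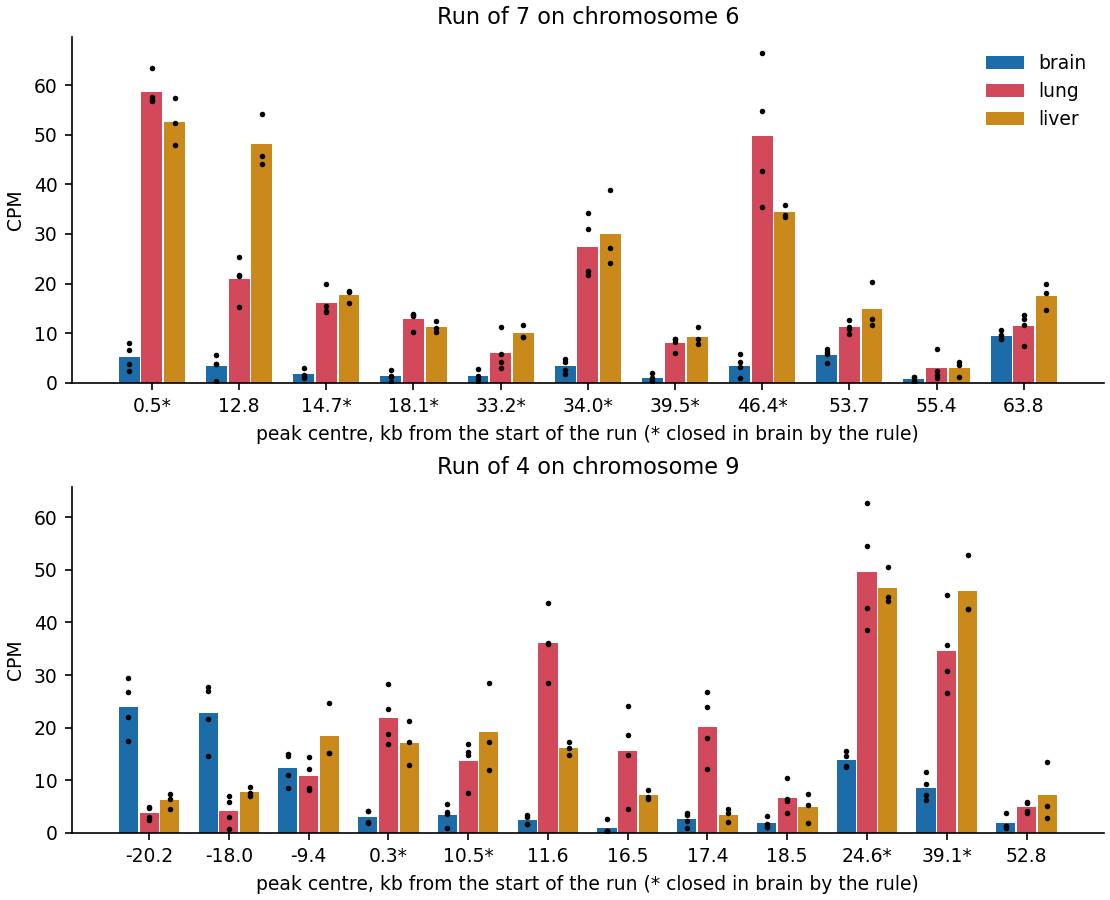
Level in CPM in brain, lung and liver at each region in and around the run of 7 on chromosome 6 and the run of 4 on chromosome 9; bars are means, points are libraries, an asterisk marks members, and regions stand in genome order by distance in kb from the start of the run, not to scale. Brain bars are below lung and liver at every member, and before the chromosome 9 run 2 regions have brain at 23.9 and 22.7 CPM.

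**Figure D4:**
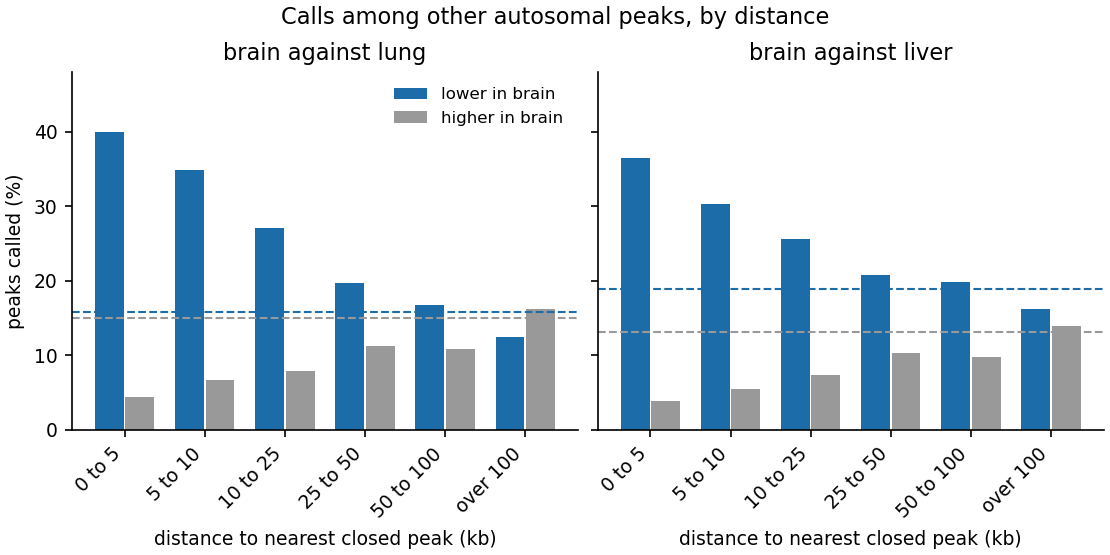
Share in percent of other tested autosomal regions called lower or higher in brain, against lung and against liver, by distance in kb to the nearest member; dashed lines are the shares over all regions tested. The share called lower than lung is 40% within 5 kb and 12.4% beyond 100 kb.

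Regions near the members were not themselves chosen by the rule, which left out of them the regions that met it. Their calls come from the same libraries that chose the members. Within 10 kb of a member lay 1422 other tested autosomal regions. Of these 531 (37.3%) were called lower in brain than in lung, whereas 79 (5.56%) were called higher, beside backgrounds of 15.8% and 15%. Against liver 473 (33.3%) were called lower and 67 (4.71%) higher, beside backgrounds of 18.9% and 13.1%. Both comparisons use the same brain libraries. The median log2 fold change of these regions was -0.81 against lung and -0.74 against liver, and their median levels were 3.74 CPM in brain, 7.02 CPM in lung and 8.09 CPM in liver. These shares are counts of edgeR calls, and no test of the shares themselves was made. The backgrounds cover all regions tested, members and chromosome X included, and are not matched for level. At least 5 CPM in both lung and liver was reached by 55.6% of the neighbours and 46.1% of regions beyond 100 kb.

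The share fell with distance. Against lung it was 40% within 5 kb, 34.9% at 5 to 10 kb, 27.1% at 10 to 25 kb, 19.7% at 25 to 50 kb, 16.7% at 50 to 100 kb and 12.4% beyond. Against liver it was 36.5%, 30.3%, 25.6%, 20.8%, 19.8% and 16.2% over the same steps. The share called higher in brain ran the other way, at 4.41% within 5 kb and 16.3% beyond 100 kb against lung, and at 3.82% and 14% against liver. With neighbours whose ratio reached 2 left out, a step that removes many called regions by its construction, the shares were lower: among the 1012 neighbours with a ratio under 2, 16.3% were called lower than lung and 15.8% lower than liver, where all regions with such a ratio gave 5.42% and 10.5%.

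Seen from the members, 783 (66.1%) had at least 1 other tested region within 10 kb and 402 had none. Of the 783, 442 (56.4%) had at least 1 region called lower in brain than in lung, 404 (51.6%) at least 1 called lower than in liver, and 97 (12.4%) at least 1 called higher in brain than in lung or liver. Such counts rise with the number of neighbours. The same counts over all autosomal regions were not made, so nothing is read from them. Between the members of the runs lay 256 other tested regions, of which 119 (46.5%) were called lower in brain than in lung and 107 (41.8%) lower than in liver. The backgrounds over all regions tested were 15.8% and 18.9%. Around other sets the calls likewise went in the direction of the set, so this is not particular to the members. The 2 sets that follow were chosen for brain above lung in these libraries. Within 10 kb of regions closed in lung, 6.74% of 430 regions were called lower in brain than in lung, and 34.9% were called higher. Within 10 kb of regions with brain at 3 times both others, 6.21% of 1884 were called lower in brain than in lung, and 36.6% were called higher.

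The contrast of lung with liver compares no brain level, but the brain libraries entered the same fit. Levels in all 3 tissues also chose the members. Of the 1422 neighbours 165 (11.6%) were called higher in lung than in liver and 105 (7.38%) lower, beside backgrounds of 5.5% and 8.28%. With library size alone the first share was 7.59%, beside a background of 3.08%, and without lung library 1 it was 7.64%, beside 4.19%. Without brain library 1 it was 12.8%, beside 6.09%.

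The neighbour with the largest fall in brain against lung was chr6:55277268-55277874, which lies 1.06 kb from a member. It had 0.501, 3.73, 2.00 and 3.86 CPM in brain, 89.3, 66.6, 44.2 and 57.8 CPM in lung, and 21.3, 8.73 and 15.1 CPM in liver. The log2 fold change was -4.74 against lung (edgeR, adjusted p = 6.54e-15) and -2.38 against liver (adjusted p = 6.13e-06), with no overlap between brain and either tissue. At chr8:123354449-123355162, 9.18 kb from a member, the levels were 1.5, 3.28, 2.80 and 2.29 CPM in brain, 87.6, 68.8, 27.7 and 76.3 CPM in lung, and 5.55, 9.19 and 13.5 CPM in liver. Its log2 fold change was -4.71 against lung (edgeR, adjusted p = 2.00e-24) and -1.66 against liver (adjusted p = 0.000143). These regions passed the 3-fold ratio but were kept out because lung stood far above liver. The third, chr6:36622717-36623225, averaged 0.505 CPM in brain, 12.7 CPM in lung and 3.49 CPM in liver, with log2 fold changes of -4.51 (edgeR, adjusted p = 5.44e-14) and -2.38 (adjusted p = 0.000873).

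Some neighbours went the other way. At chr10:62642076-62642721 brain had 37.4, 50.9, 37.2 and 44.0 CPM, lung 3.93, 5.62, 7.49 and 4.82 CPM, and liver 7.4, 4.14 and 11.3 CPM. Every brain library was above every other library, and the log2 fold change was 3.14 against lung (edgeR, adjusted p = 9.40e-17) and 2.83 against liver (adjusted p = 2.15e-12). At chr7:75841737-75842387 the means were 29.2 ± 6.67 CPM in brain, 3.54 ± 1.07 CPM in lung and 8.59 ± 6.25 CPM in liver (SD), with log2 fold changes of 3.24 (edgeR, adjusted p = 8.16e-15) and 2.16 (adjusted p = 6.41e-08). At chr12:59394590-59394794, a weak region, the means were 4.43 CPM in brain, 0.297 CPM in lung and 1.18 CPM in liver. Its log2 fold change against liver was 2.26 (edgeR, adjusted p = 0.00892), a call that was lost with library size alone and without liver library 1. Each of these 3 regions lay within 10 kb of a region closed in brain.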

How the data were processed

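The ATAC values are raw counts of reads per region, deposited by the authors as 1 merged set. The names of the regions mark the set as made without a library called lung 3, and the headers name no lung 3. The RNA values are raw counts per gene, per the file headers. Per the submitters' processing notes the tools included MACS2, bedtools, Picard, HTSeq 0.6.1, Bowtie2, TopHat and SAMtools 1.10.2, with builds mm9 and mm10; no tool or read shift was tied to an assay. Chromosome ends in the ATAC file match mm9. Levels are counts divided by the column total. Tests used edgeR 4.0.16 in R 4.3.3 (filterByExpr, TMM, robust quasi-likelihood, all 11 ATAC libraries, a mean per tissue); DESeq2 1.42.0 was an alternative. A call needed an adjusted p under 0.05 over all regions tested and an absolute log2 change of at least 1.

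Named were the 8 members with the largest ratio, the 6 with the highest lung and liver mean, the members of the 4 runs with the most members (ties, here 11 runs of 4, by summed lung and liver CPM), the 3 widest, the 3 on each side of the threshold, the largest lung to liver and liver to lung ratios, and 3 neighbours in each direction; the text gives part of them. Regions beside the runs were chosen after their values were seen. The members and lists were chosen with earlier results of these data known. The planned count of RNA near members was not run, since no annotation of the mm9 build was used. The single-cell table was not used. Depth limits precision: intervals are not given, and at a given CPM counting error is largest in lung a and lung b. At the members the median count was lower still in brain, with 11 reads in brain 4 and 13 in brain 3. It was 14 reads in both lung a and lung b.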

Additional observations from a re-analysis of the deposited data

Results flagged for a closer look

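Of 108 groups of 4 libraries examined, for the whole set and for the named regions, 6 had 1 library set apart from the other 3 by more than 0.829 of the group's range, and chance alone flags about 1 in 20 such groups. In brain these were 1.60 CPM at chr1:54797838-54798341, the highest of its group, and 4.40 CPM at chr17:34791956-34793018, the lowest. In lung they were 63.5 CPM at chr6:52108033-52109035, 15.3 CPM at chr5:143721939-143722138 and 1.02 CPM at chr12:59394590-59394794, each the highest, and 10.2 CPM at chr6:52125917-52126260, the lowest.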

How the results depend on the processing

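The number of regions closed in brain was 1185. It was 750 with TMM scaling, 593 with DESeq2 size factors, 540 with a minimum of 10 CPM, 3263 with a ratio of at least 2 and 451 with a ratio of at least 4. Leaving out each library in turn gave 913 to 1735. Chosen after seeing the data, quantile scaling gave 501, of which 469 were among the 1185, and thinning to the smallest total 1413, of which 874 were.

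With each library left out, members called lower in brain numbered 1168 to 1185 against lung and 1138 to 1185 against liver; the choice of members fixes these calls, so they show no stability. Members called higher in lung than in liver, 47 with all libraries, numbered 9 to 58, with 24 without lung 2 and 21 without liver 1, and 0 with library size alone and 78 with no minimum fold. Neighbours within 10 kb called lower in brain made 32.8% to 36.5% against lung (backgrounds of 12.2% to 18.1%) and 26.4% to 35.7% against liver (13.7% to 21.7%) with members chosen again each time, and those higher in lung than in liver 7.64% to 13%, with backgrounds of 4.19% to 6.09% (7.59% with library size alone). Chosen after seeing the data, neighbours with a ratio under 2 gave 16.3% against lung and 15.8% against liver, and members chosen with TMM scaling gave 80 runs in place of 146.

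For libraries of different tissues that share a number, correlations of their deviations were 0.0541 and 0.118 for brain with lung. They were -0.0222, -0.160 and -0.0282 for brain with liver, and -0.00867 and -0.0588 for lung with liver. Pairs with other numbers ranged from -0.118 to 0.0854 for brain with lung and from -0.0983 to 0.158 for brain with liver. Only 2 lung libraries are numbered, so their values mirror each other and cannot decide whether numbers mark pairs. With the number as a replicate block over the numbered libraries, 1119 members were called lower than lung and 1156 lower than liver, against 1151 and 1183 in the same libraries without the block (also added after seeing the data), and 68 were called higher in lung than in liver, against 69. Of 1664 fold changes of named regions under other settings, 14 lost their call and 0 reversed. Most named regions were members, chosen by the rule for low brain levels, and the named neighbours were chosen for large fold changes in the same libraries. That choice favours calls that are kept, so nothing is read from these counts. At a given CPM, depth limits single regions most in lung a and b, where 5 CPM is 6.68 and 6.22 reads.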
